A study of Mus musculus with 18 samples.

Results

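The genes described here are those of the cytosolic ribosomal proteins, the protein components of the ribosomes that translate nuclear messages. They were taken as the probe sets whose single symbol in the array annotation was Rpl or Rps followed by a number and at most 1 letter, Rplp0, Rplp1 or Rplp2, or Rpsa. This gave 100 probe sets of 45037, which belonged to 46 genes of 18193. Of these genes, 22 encode proteins of the small ribosomal subunit and 24 proteins of the large subunit. A single probe set measured 23 of them, and several probe sets measured each of the other 23.

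RNA of CD-1 mice was measured on Affymetrix mouse genome arrays. There were 2 arrays of normal liver from 10-week-old adult females and 12 of microdissected embryonic liver. The embryonic arrays came in pairs from 6 stages, daily from 10.5 to 14.5 days post conception (dpc) with a last pair at 16.5 dpc. A further 4 arrays held the remaining embryo without its liver, 1 at each daily stage up to 14.5 dpc except 13.5 dpc. All mice were of this outbred stock, with no genetic alteration named, and each embryonic sample pooled at least 5 embryos. Their title and source, which were followed here, call the adult samples baseline and normal, although a partial hepatectomy is described in the treatment notes attached to them. Replicates are named biological and nothing says that they came from separate litters or animals, so the p-values reflect only how far these particular samples differ.

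Ribosomal proteins are made in near equal numbers, because each mature ribosome holds one copy of most of them, and their messages are among the most abundant in a growing cell. In mammals these messages typically begin with a cytosine followed by further pyrimidines, the terminal oligopyrimidine (TOP) tract, through which growth signals of the mTOR pathway control their translation. The embryonic liver is a site of rapid growth and of red cell formation, a lineage that in humans is sensitive to loss of single ribosomal proteins.

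The start regions of some of the genes are shown because the pyrimidine tract of TOP messages lies there. RefSeq promoter windows of the build GRCm38.p6 were found for 40 of the 46 genes. In 14 of the 40, or 35%, a run of C and T of at least 6 bases held the annotated start or ended just before it, against 12.5% of the 27025 genes in the same table. Windows of 15 bases on each side of the annotated start follow for some of the members that results below turn on, 5′ to 3′, with that run in capitals.
Rpl14, large subunit, chr9:120571502-120571531, plus strand: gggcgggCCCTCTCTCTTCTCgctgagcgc
Rpl35, large subunit, chr2:39005117-39005146, minus strand: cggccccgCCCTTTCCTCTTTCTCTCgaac
Rpl27a, large subunit, chr7:109519180-109519209, plus strand: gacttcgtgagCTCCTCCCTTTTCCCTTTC
Rplp2, ribosomal stalk, chr7:141447636-141447665, plus strand: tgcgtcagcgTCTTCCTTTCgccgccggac
Rps6, small subunit, chr4:86857353-86857382, minus strand: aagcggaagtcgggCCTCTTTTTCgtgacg
Rpl39l, paralogue of Rpl39, chr16:10170213-10170242, plus strand: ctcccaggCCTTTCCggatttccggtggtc
Rps19, small subunit, chr7:24884898-24884927, plus strand: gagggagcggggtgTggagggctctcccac
Rpsa, small subunit, chr9:120127751-120127780, plus strand: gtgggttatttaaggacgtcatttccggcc
Rps27l, paralogue of Rps27, chr9:66946071-66946100, plus strand: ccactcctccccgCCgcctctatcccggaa
The run was 14 bases long at Rpl14 and 10 bases at Rps6, while Rpsa had none at its annotated start. Runs of at least 6 bases are more frequent among the windows shown than among the 40. Of other members named below, Rps15, Rpl12, Rpl37, Rps25, Rps3 and Rps2 had runs of 0 to 4 bases and Rps18 one of 11. In windows of 300 bases (250 before and 50 after the start, both strands searched), CCGGAAG, a core that ETS family factors bind, was found in 50% of the 40 members and 9.93% of all genes. AAGATGG, the core of the YY1 motif, was found in 17.5% of members and 7.28% of all genes. The TATA sequence TATAAA was found in 12.5% of members and 15.7% of all genes. The CCGGAAG and AAGATGG letters can overlap by 3 bases on one strand. A match says only that these letters are present, and annotated starts can lie several bases from the main start in liver.

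Intensities are given on the linear scale of the deposited table unless log2 is named. Where a gene had several probe sets, the brightest by mean log2 stood for it. Values under 24.8, which is the 20th percentile over the table, were set to it before log2 was taken. A gene was tested in a comparison when it exceeded 77.9 on at least 2 arrays, and 42 of the 46 genes did so in liver. Rps16, Rps27, Rpl3l, a paralogue of Rpl3 known from muscle, and Rpl39l, a paralogue of Rpl39 known from male germ cells in mouse, did not. Rps16 ranged between 4.96 and 35.2 on the 14 liver arrays, so these probe sets carried little signal and give no level for a ribosomal protein that every cell needs. A gene was called changed at a Benjamini-Hochberg adjusted p under 0.05 in limma, adjusted over all genes tested.

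Across the embryonic liver the genes of the group held a near constant level. The median intensity of the 42 tested members lay between 5642 and 6165 on all 12 embryonic arrays. It was 1309 and 2101 on the adult arrays, below every embryonic array. On the rest-of-embryo arrays it lay between 10098 and 10563. Within the distribution of each array the median member stood at percentile 98.98 and 98.89 on the adult arrays, against 99.72 to 99.79 on the embryonic liver arrays and 99.72 to 99.75 on the rest-of-embryo arrays. Of the 46 members, 21 and 19 lay above the 99th percentile of the adult arrays, against 34 to 36 on the embryonic liver arrays. All 100 probe sets together held 1.27% and 1.97% of the summed intensity of the adult arrays, against 3.70% to 4.18% of the embryonic liver arrays.

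**Figure D1:**
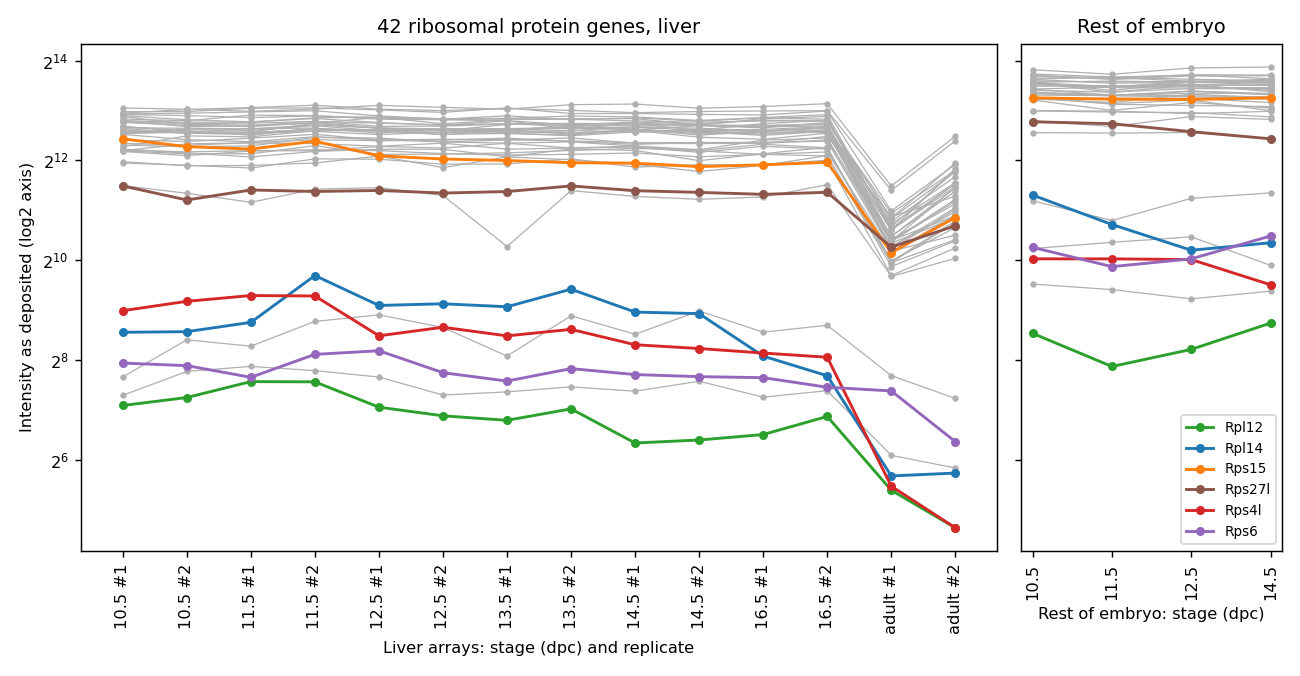
Deposited intensity (log2 axis, values under 24.8 drawn at 24.8) of the 42 tested genes on each liver array by stage and replicate, left, and on the 4 rest-of-embryo arrays, right. Lines join the values of 1 gene, and 6 genes are coloured. Most lines are flat over the 12 embryonic arrays and drop together on both adult arrays, while Rps4l, Rpl14 and Rpl12 also vary among embryonic stages.

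Scale differed between arrays. The 99th percentile of all probe sets was 1319 and 2249 on the adult arrays, 2448 to 2881 on the embryonic liver arrays and 5490 to 5912 on the rest-of-embryo arrays. Negative values stood only on liver arrays, 1216 to 1535 on each, while the rest-of-embryo arrays held none and 35 to 41 exact zeros each. The scaling of the values was not given in the sources used, and for the comparison of liver with the rest of the embryo, tissue and form of values cannot be told apart. Every comparison was therefore also made after quantile normalization, which gives all arrays of a fit the same distribution. The ratio of the 3′ to the 5′ control probe set of Gapdh was 1.09 to 1.20 on the 4 rest-of-embryo arrays and 0.744 to 0.886 on 13 liver arrays. The part of this in the comparison of liver with the rest of the embryo was not tested. On the remaining liver array, replicate 1 of 10.5 dpc, the ratio was 2.82. The median of the members on that array, 5910, was inside the embryonic range, and leaving it out kept the count of 1 member called between 16.5 and 10.5 dpc.

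**Figure D2:**
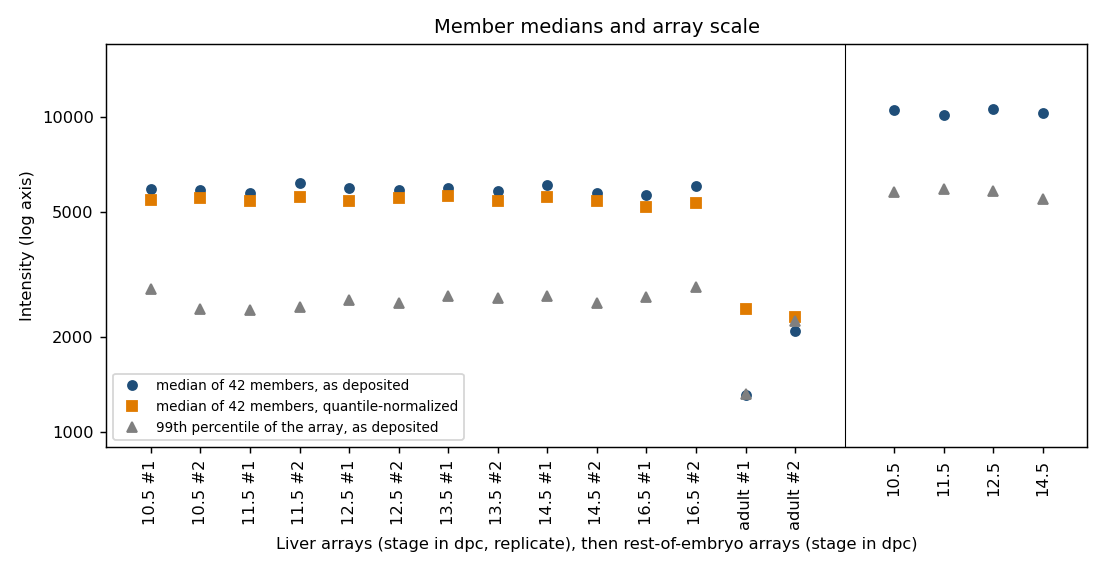
Median intensity of the 42 tested members on each array as deposited (circles) and after quantile normalization over the 14 liver arrays (squares), with the 99th percentile of all probe sets on the array (triangles), on a log axis. Embryonic liver arrays lie at one level, and both adult arrays are lower on either scale.

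Markers of red cells and hepatocytes were far higher at 16.5 than at 10.5 dpc. The summed intensity of 8 red cell markers was 23735 and 23990 at 16.5 dpc, against 2586 and 2198 at 10.5 dpc. That of 7 hepatocyte markers was 29244 and 29678 at 16.5 dpc, against 6335 and 5725 at 10.5 dpc. Over the same interval the ribosomal protein genes moved by a median of -0.01 log2, against 0.05 for all 14127 genes tested. Of the 42 members only Rps4l, a paralogue of Rps4x, was called by limma, as lower at 16.5 dpc, and none was called higher, while 2 passed at an unadjusted p under 0.05. Among all genes, 15.1% were called lower and 35.7% in either direction. After quantile normalization Rps4l, Rpl14 and Rps15 were called lower, where 17.9% of all genes were. In bulk tissue, fewer cells of a type and less RNA per cell cannot be told apart. Markers of heart muscle, 8 of 8 measured, summed to 1266 and 1254 at 16.5 dpc, against 22871 and 14492 at 10.5 dpc, and to 3467 and 10953 at 12.5 dpc, so other tissue was present on these arrays. Without 10.5 and 12.5 dpc liver, with 11.5 dpc in place of 10.5, 4 members were called lower, Rps4l, Rpl14, Rpl12 and Rps25. The share of all genes called in that fit was not counted, so this count is not read as particular to the members.

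Rps4l read 507 and 578 (10.5 dpc), 626 and 622 (11.5 dpc), 358 and 403 (12.5 dpc), 358 and 391 (13.5 dpc), 316 and 300 (14.5 dpc), then 282 and 266 (16.5 dpc). Every array from 12.5 dpc onward was below every array of the earlier stages. The difference between 16.5 and 10.5 dpc was -0.99 log2 (SE 0.22, limma adjusted p = 0.00469). Rps4x, which encodes the common form of the same protein, read 5912 and 6271 at 16.5 dpc, against 6067 and 6296 at 10.5 dpc, values that overlapped.

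Rpl14, a large subunit protein, read 376 and 379 (10.5 dpc), 431 and 827 (11.5 dpc), 546 and 558 (12.5 dpc), 536 and 684 (13.5 dpc), 497 and 487 (14.5 dpc), then 270 and 205 (16.5 dpc). Both arrays of 16.5 dpc were the lowest of the 12, and the 2 arrays of 11.5 dpc stood far apart. Rpl12, at the base of the stalk, read 136 and 152 (10.5 dpc), 189 and 189 (11.5 dpc), 133 and 118 (12.5 dpc), 111 and 130 (13.5 dpc), 80.7 and 84.1 (14.5 dpc), then 90.7 and 117 (16.5 dpc). Its arrays of 11.5 dpc were the highest and those of 14.5 dpc the lowest.

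In a test for any difference among the 6 embryonic stages (limma moderated F), 3 of the 42 members were called, where 29.9% of all genes were. These were Rps4l (adjusted p = 0.00846), Rpl14 (adjusted p = 0.00975) and Rpl12 (adjusted p = 0.0262), whose stage means spanned 1.19, 1.36 and 1.20 log2. The call of Rpl12 was lost without any one of the 4 arrays of 11.5 and 14.5 dpc, and that of Rpl14 without replicate 2 of 16.5 dpc, while that of Rps4l remained without each array in turn. The median span of the members' stage means was 0.12 log2, against 0.65 for all genes. No member was called by limma in any of the 5 steps between successive stages, for which 13.8%, 5.34%, 0.12%, 0.0566% and 0.0354% of all genes were called in stage order. At an unadjusted p under 0.05, 1, 2, 0, 1 and 1 members passed in these steps.

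Rps15, of the small subunit, was lower at the later stages by 1 of its 2 probe sets, and its call depended on which arrays shared the fit. Its representative probe set read 5520 and 4958 (10.5 dpc), 4794 and 5348 (11.5 dpc), 4363 and 4176 (12.5 dpc), 4087 and 3967 (13.5 dpc), 3940 and 3756 (14.5 dpc), then 3849 and 3990 (16.5 dpc). All 8 arrays from 12.5 dpc onward lay below the 4 earlier ones. The difference between 16.5 and 10.5 dpc was -0.42 log2 (SE 0.19, limma adjusted p = 0.125) in the fit that shared its spread with the adult arrays. With the adult arrays left out, an alternative added after these values were seen, the same difference had SE 0.077 and adjusted p = 0.00192. In that fit 3 members were called lower, Rps4l, Rps15 and Rpl12 (adjusted p = 0.0379), where 40.2% of 13330 genes were called in either direction. The other probe set of Rps15 read 4624 and 4719 at 16.5 dpc, against 4854 and 4460 at 10.5 dpc, and differed by 0.01 log2 (SE 0.20, limma adjusted p = 0.997 over all probe sets), so the lower values rested on 1 of 2 probe sets.

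Coordination across the liver arrays was high where the adult arrays were included and lower without them. The correlation of each tested member with the median of the others, on log2 values, had a median of 0.993 over the 14 liver arrays and exceeded 0.9 for 35 of the 42. Among the 14085 other genes 9.12% exceeded 0.9 with the same median. Over the 12 embryonic arrays alone the median correlation was 0.452, and that between pairs of members was 0.191, against 0.978 between pairs over 14 arrays. Other genes had a median correlation of 0.036 with the members' median over these 12 arrays, and pairs of other genes 0.0035. All members share the arrays, their scale and the drop in the adult, so these values are descriptive. The lowest correlations over 14 arrays were those of Rps6 (0.634), Rpl27a (0.660), Rpl12 (0.807) and Rpl37 (0.862). Over the embryonic arrays as deposited, Rpl19, Rpl27a and Rps3 had negative values of -0.155, -0.071 and -0.010. After quantile normalization 9 members were negative over these arrays, the lowest being Rplp0 (-0.477), Rps29 (-0.435) and Rps10 (-0.386). Rpl19 and Rpl27a then had 0.136 and 0.159, so the members with negative values depended on the scaling. Most members had little variation there to share: the coefficient of variation over the 12 arrays had a median of 4.08%.

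In adult liver all 42 tested members were lower than in embryonic liver. The contrast took the adult mean minus the mean of the 6 embryonic stage means, and 42.6% of all genes were called lower in it. The median difference was -1.66 log2, against -0.21 for all genes, and members ranged from -3.59 to -0.90. A difference of at least 1 log2 was found for 40 of the 42, where 23.7% of all genes were called lower with that size. Both adult arrays lay below all 12 embryonic arrays for 41 members, as for 32.5% of all genes. The exception was Rpl27a, whose lowest embryonic array overlapped the adult range.

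After quantile normalization the 42 members were again called lower, where 38.1% of all genes were. The size shrank to a median of -1.06 log2, against -0.05 for all genes, with a range of -3.59 to -0.32. The number lower by at least 1 log2 fell to 23, where the background was 20.6%. Relative to the median of all genes, the members stood at -1.45 log2 as deposited and at -1.02 log2 after quantile normalization. The median over members was 2452 and 2314 on the normalized adult arrays, against 5163 to 5595 on the normalized embryonic arrays, so the adult arrays came close to each other and remained below. Against 16.5 dpc alone, 41 members were lower as deposited (background 37.5%), all but Rps6 (adjusted p = 0.0717).

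The 2 adult arrays differed in scale for most members. Of 41 members with positive values on both, 37 were higher on adult replicate 2, by a median ratio of 1.74. The fit shares its spread over all liver groups. For members whose adult arrays lie far apart, the SE and p-value of an adult difference therefore understate the uncertainty. Without adult replicate 1 the median difference of the group was -1.30 log2, and without adult replicate 2 it was -2.10 log2. Markers of other cells moved with this comparison. The summed intensity of 5 cell cycle markers was 93.6 and 54.6 in adult liver, against 5845 to 11862 in embryonic liver. That of 8 red cell markers was 481 and 533, against 2198 to 23990, and that of 7 hepatocyte markers was 45034 and 51677, against 5725 to 29678. The part of these cells in the adult difference was not tested.

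**Figure D3:**
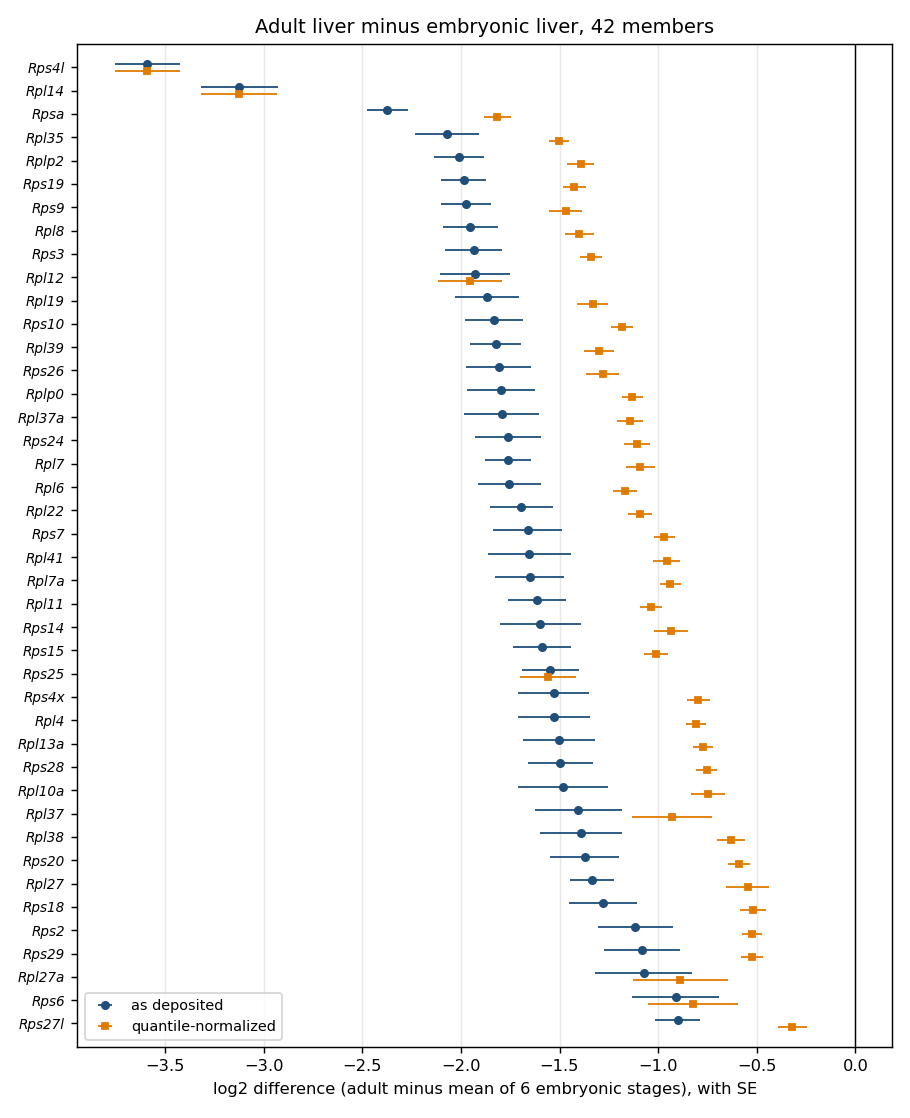
Adult minus embryonic liver for each of the 42 tested genes, in log2 with the standard error of the limma fit, as deposited (circles) and after quantile normalization (squares). All points lie left of 0, with Rps4l and Rpl14 farthest from it on both scales and Rps27l nearest. The spread is shared over all liver groups, so standard errors are too small for members whose adult arrays lie far apart.

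Within the group, 34 of the 42 members lay within 0.5 log2 of the group's median difference. Among small subunit genes the median was -1.59 log2 (20 tested) and among large subunit genes -1.72 log2 (22 tested), and after normalization -0.99 and -1.09 log2. The 12 tested members with a pyrimidine run of at least 6 bases at the annotated start had a median of -1.80 log2, and the 24 with a shorter run or none had -1.63 log2. Their ranges overlapped widely, at -3.12 to -0.91 log2 and -2.37 to -0.90 log2.

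The members farthest below the group were Rps4l, Rpl14 and Rpsa, which encodes a small subunit protein also known as a laminin receptor. Rps4l read 44.3 and -10.5 in adult liver, against a lowest of 266, a median of 375 and a highest of 626 in embryonic liver. The second adult value lay under the floor, so the difference of -3.59 log2 depends on the floor and was -2.86 log2 with a floor of 54.9. Rps4l passed the filter only through the embryonic arrays, and the floor narrows its adult spread, so no p-value is given. Rpl14 read 51.1 and 53.1 in adult liver, against a lowest of 205, a median of 492 and a highest of 827 in embryonic liver. Its difference was -3.12 log2, or -3.05 log2 with the floor of 54.9. Both adult values lay under the filter of 77.9 and under the medians of their arrays, 76.3 and 73.3. They were not shown to be above background, so no fold or p-value is given.

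Rpsa was the member farthest below the group among those with values above 1000. It read 1160 and 1450 in adult liver, against a lowest of 6546, a median of 6661 and a highest of 7111 in embryonic liver, with a wide gap between the groups. The difference was -2.37 log2 (SE 0.10, limma adjusted p = 7.95e-09), a 5.18-fold lower level, and -1.81 log2 after normalization. Rpl35, a large subunit protein, Rplp2 of the stalk and Rps19 followed, with -2.07, -2.01 and -1.99 log2.

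At the other end, Rps27l, Rps6, Rpl27a, Rps29 and Rps2 had differences over 0.5 log2 above the group's median as deposited. After normalization Rps6 (-0.82 log2) and Rpl27a (-0.89 log2) lay within 0.5 log2 of it, and Rps18 and Rpl27 lay beyond that distance with the other 3. Rps27l read 1227 and 1650 in adult liver, against a lowest of 2362, a median of 2657 and a highest of 2872 in embryonic liver. The groups did not overlap, and the difference of -0.90 log2 (SE 0.12, limma adjusted p = 3.90e-05) became -0.32 log2 (adjusted p = 0.00264) after normalization. Against 16.5 dpc alone it was -0.20 log2 after normalization and missed the threshold (adjusted p = 0.0984).

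Rps6, the substrate of the S6 kinases, read 166 and 82.2 in adult liver, against a lowest of 175, a median of 212 and a highest of 291 in embryonic liver. The higher adult array came close to the lowest embryonic one. The difference was -0.91 log2 (SE 0.22, limma adjusted p = 0.00395), and without adult replicate 2 it was -0.40 log2 and no longer passed (adjusted p = 0.113). Rpl27a had -1.07 log2 (adjusted p = 0.00262), and without that array -0.85 log2, which no longer passed either (adjusted p = 0.0556). The mean over all probe sets of these 2 genes, which brings in a dim probe set each, gave -0.06 log2 for Rps6 and -0.08 log2 for Rpl27a, neither called.

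Rps29 and Rps2, both of the small subunit, have some of the brightest probe sets of the group. Rps29 read 2869 and 5732 in adult liver, against a lowest of 8102, a median of 8525 and a highest of 9005 in embryonic liver. Rps2 read 2696 and 5375 in adult liver, against a lowest of 7895, a median of 8192 and a highest of 8816 in embryonic liver. The groups were apart in both genes and the adult arrays differed widely from each other.

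The probe sets of 6 tested members, Rps4l, Rpl14, Rpl27a, Rps6, Rps25 and Rpl12, averaged only 127 to 483 in embryonic liver, whereas the other 36 averaged 2501 to 8580. These 6 included the 3 genes called over the embryonic stages, and Rps4l and Rpl14 with the largest adult differences. A probe set's brightness does not give the level of its gene, and 4 of the 6 had no other probe set to compare with. Over the 42 members the Spearman correlation of the adult difference with the embryonic level was 0.142 as deposited and 0.396 after normalization. The embryonic level is part of that difference, so this correlation cannot show whether brightness goes with the size of the drop.

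Genes tied to loss of red cell production in humans were no exception. Of 9 such ribosomal protein genes listed, 6 were tested, Rps19, Rps24, Rps7, Rps10, Rps26 and Rpl11. By its brightest probe set none was called by limma between 16.5 and 10.5 dpc, also not at an unadjusted p under 0.05, where 35.7% (adjusted) of all genes were. On its own, the dim probe set 1455195_at of Rps24 was lower (-0.72 log2, limma adjusted p = 0.0236 over all probe sets). After normalization 1416719_a_at of Rps10 was lower too (-0.35 log2, limma adjusted p = 0.00991). All 6 were lower in adult liver, where 42.6% of all genes were, with a median of -1.79 log2 as deposited and -1.15 log2 after normalization. Rps19, the gene most often mutated in Diamond-Blackfan anaemia, read 990 and 1360 in adult liver, against a lowest of 4355, a median of 4519 and a highest of 5021 in embryonic liver. Its values showed no overlap, and the difference was -1.99 log2 (SE 0.11, limma adjusted p = 6.61e-08).

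Most other listed genes of the translation machinery were lower in the adult as well, in a comparison in which 42.6% of all genes were. Of 18 tested translation factors and other genes with TOP messages, 18 were lower, with a median of -1.76 log2 as deposited and -1.28 log2 after normalization. The largest differences were -3.66 log2 for Nap1l1, a histone chaperone, and -3.27 log2 for Npm1, a nucleolar chaperone. All 26 listed genes of ribosome biogenesis were lower, by a median of -1.89 log2 as deposited and -1.80 log2 after normalization. Nop56 (-3.98 log2), part of the particles that methylate ribosomal RNA, and Ppan (-3.94 log2) led them. Outside the symbol rule, 4 tested ribosomal protein genes were lower, Rps3a1 (-1.87 log2), Rpl22l1 (-1.74 log2), Fau (-1.15 log2) and Rpl7l1 (-1.01 log2). Of 76 genes of mitochondrial ribosomal proteins, 60 were lower and 1 was higher, with a median of -0.74 log2. After normalization 49 were lower and 4 higher, with a median of -0.43 log2, where 38.1% of all genes were lower. Of 14 tested genes of the mTOR pathway, 11 were lower and 1, Sesn2, was higher, with a median of -0.59 log2. After normalization 9 were lower and 1 higher, with a median of -0.45 log2.

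Between 16.5 and 10.5 dpc, where 35.7% of all genes were called in either direction, 2 of 18 TOP genes, 3 of 26 biogenesis genes, 10 of 76 mitochondrial ribosomal protein genes and 8 of 14 mTOR pathway genes were called. Among the TOP genes 2 of 18 were higher, Eef1d (0.61 log2), a subunit of the factor that recharges elongation factor 1, and Pabpc1 (0.41 log2), the poly(A) binding protein. In ribosome biogenesis 1 was higher, Polr1a (1.73 log2), the largest subunit of RNA polymerase I, and 2 were lower, Nob1 (-0.71 log2) and Tcof1 (-0.68 log2). Of the mitochondrial ribosomal proteins 8 were higher and 2 lower as deposited, and 5 were higher and 6 lower after normalization, so the balance of directions turned with the scaling. In the mTOR pathway 5 were higher and 3 lower, among them Eif4ebp1 (-2.15 log2) and Ddit4 (-2.10 log2), both inhibitors in that pathway.

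Liver was compared with the rest of the embryo at the 4 matched stages. As deposited, 42 of 43 tested members were lower in liver, where 67.5% of all 14896 genes were, and the median of -0.86 log2 was smaller in size than the -1.04 log2 of all genes. A difference of at least 1 log2 was found for 13 members, where 51.2% of all genes were called lower with that size. Both liver arrays lay below the rest-of-embryo array at all 4 stages for 42 members and for 62.8% of all genes. After quantile normalization 14 members were lower (background 40.9%) and 12 were higher (background 30.6%), and the median was -0.01 log2, against -0.14 log2 for all genes. Markers of neural and mesenchymal cells, all 12 measured, summed to 299 to 2014 and 2735 to 8480 in embryonic liver, against 18979 to 24615 and 14245 to 38778 in the rest of the embryo, and their part in the member values was not tested. Relative to all genes the group stood at 0.17 log2 as deposited and at 0.13 log2 after normalization, so the sign of its shift depended on whether it was set against 0 or against all genes.

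**Figure D4:**
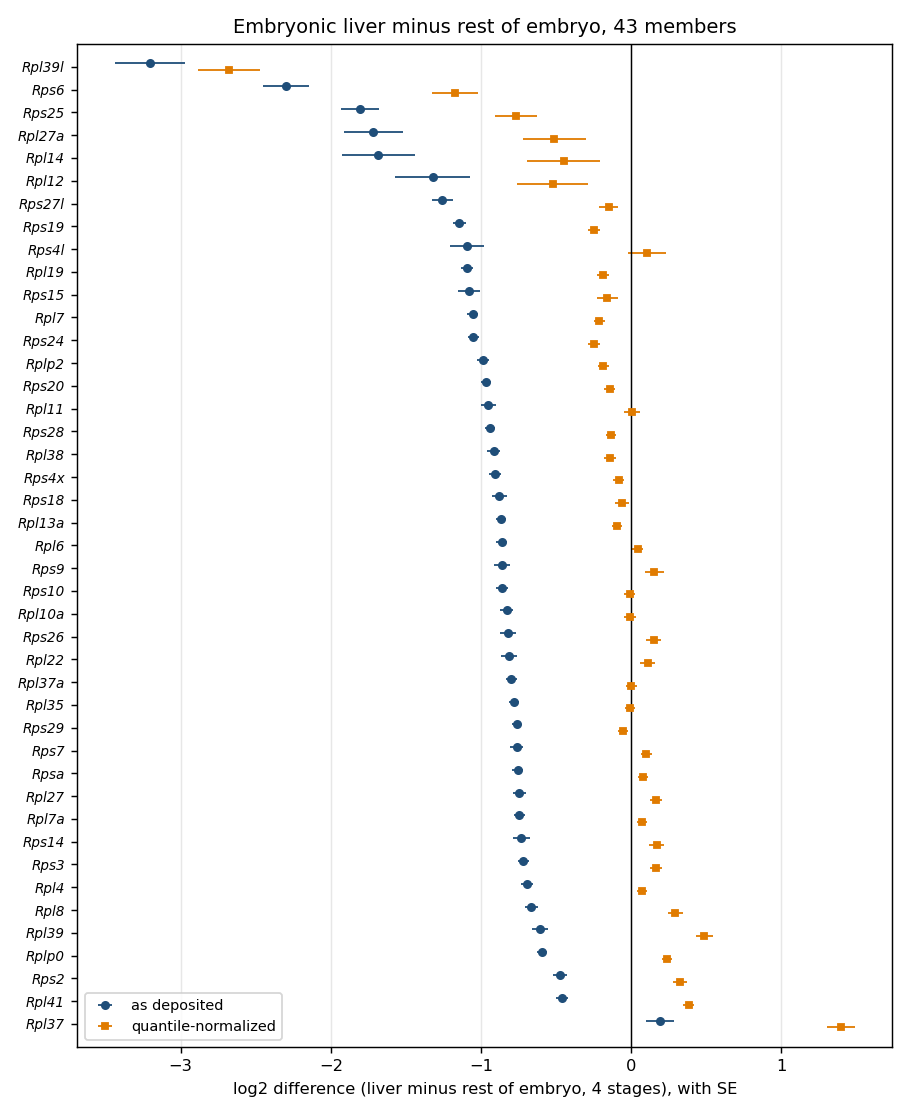
Embryonic liver minus rest of embryo for each of 43 tested genes, in log2 with the standard error of the limma fit, as deposited (circles) and after quantile normalization (squares). The deposited differences lie left of 0 for 42 genes, most normalized ones lie near 0, and Rpl39l and Rpl37 stand at opposite ends on both scales.

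A few members departed from the group's median by over 0.5 log2 on both scales, Rpl39l, Rps6, Rps25 and Rpl27a below it and Rpl37 above it. Rpl14 lay that far below only as deposited, and Rpl12 only after normalization. Those below the group had dim probe sets in liver. The 7 tested members with an embryonic liver mean under 1000 had a median of -1.72 log2, and the other 36 had -0.82 log2. After normalization these medians were -0.52 and 0.003 log2. The split used the liver level, which is itself part of the difference, so members low in liver fall among the dim ones by construction. In the rest of the embryo Rps6, Rpl14 and Rpl27a averaged 1158, 1671 and 1221, while Rpl39l, Rps25, Rpl12 and Rps4l averaged under 1000. Rpl39l, Rps6, Rps25, Rpl27a, Rpl14 and Rpl12, described next, were all among the dim members, and the part of probe set brightness was not tested. Rpl39l read -1.5 to 39.2 on the 8 liver arrays of these stages, against 186, 231, 232 and 481 in the rest of the embryo from 10.5 to 14.5 dpc. All liver values lay far below the rest-of-embryo values, and several were under the floor. The difference was -3.21 log2 and -2.68 log2 after normalization, sizes that the floor compresses. Rpl39l passed the filter of 77.9 only through the rest-of-embryo arrays, and the floor narrows its spread in liver, so no p-value is given. Its paralogue Rpl39 differed by -0.61 log2 as deposited and by 0.49 log2 after normalization.

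Rps6 read 201 to 291 on the 8 liver arrays, against 1223, 935, 1043 and 1433 in the rest of the embryo, with no overlap. The difference was -2.30 log2 (SE 0.15, limma adjusted p = 1.26e-07), and -1.17 log2 after normalization. Rps25 of the small subunit followed with -1.81 log2 and -0.77 log2 after normalization. Rpl27a, Rpl14 and Rpl12 had -1.72, -1.68 and -1.32 log2, of which only that of Rpl27a still passed after normalization (-0.51 log2, adjusted p = 0.0468).

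Rpl37, of the large subunit, was the only member not called lower in liver as deposited. It read 2288 to 2885 on the 8 liver arrays, against 2336, 1775, 2417 and 2608 in the rest of the embryo. The groups overlapped, with a difference of 0.19 log2 (SE 0.093, limma adjusted p = 0.0761) that became 1.40 log2 (adjusted p = 4.52e-07) after normalization. It has a single probe set, which read 1236 on replicate 1 of 13.5 dpc liver, a stage outside this comparison, and 2692 on replicate 2.

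The tissue difference changed with stage for 1 of 43 members, where 15.8% of all genes were called. This was Rps15, whose liver value fell relative to the rest of the embryo by 0.12 log2 per day (SE 0.034, limma adjusted p = 0.0336). The rest of the embryo held 9772, 9590, 9556 and 9768 at its 4 stages, an even level, while the liver values are given above. The call was lost without any one of the 4 rest-of-embryo arrays and without replicate 2 of 14.5 dpc liver. Its other probe set showed no such change (0.00 log2 per day, limma adjusted p = 0.996 over all probe sets).

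Single probe sets gave further departures that the brightest probe set of a gene hides. Tested on their own, 85 of 90 member probe sets were lower in adult liver, where 39.6% of all probe sets were, and 2 were higher, of Rps3 and Rps10. The probe sets in what follows were chosen after their values were seen. One of 6 probe sets of Rps18, 1450390_x_at, read 3968 to 4354 on the 8 liver arrays of the matched stages, against 97.2, 80.8, 91.9 and 127 in the rest of the embryo, a difference of 5.41 log2 (SE 0.094, limma adjusted p = 6.58e-11). Its liver values were all far above those in the rest of the embryo, opposite to the gene's other bright probe sets, one of which, 1455572_x_at, read 5991 to 6849 against 10817 to 12222.

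A further probe set of Rps18, 1421837_at, read 163 and 166 (10.5 dpc), 269 and 222 (11.5 dpc), 528 and 543 (12.5 dpc), then 520 and 529 (16.5 dpc) in liver. It thus stepped up to a level held from 12.5 dpc onward, with a difference between 16.5 and 10.5 dpc of 1.67 log2 (SE 0.22, limma adjusted p = 0.000174). In adult liver it read 52.5 and 90.5, below every embryonic array. On the liver arrays of the matched stages it read 163 to 543, against 20.1 to 46.4 in the rest of the embryo. That difference of 3.34 log2 depends on the floor, since the lowest rest-of-embryo value lay under it. The probe set of Rps18 described before it was higher in liver too, and the remaining ones were lower. Whether the probe sets of Rps18 detect only that gene was not tested. One of 3 probe sets of Rps3, 1447563_at, read 286 and 231 in adult liver, against 92.3 to 197 in embryonic liver, and was higher by 1.05 log2 (SE 0.19, limma adjusted p = 0.000628). The bright probe set of Rps3 read 1240 and 2008 in adult liver, against 5834 to 6218 in embryonic liver, so the 2 probe sets went opposite ways. A further 110 probe sets list a member together with other symbols and are not named, and 98 of the 102 tested were lower in adult liver.

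**Figure D5:**
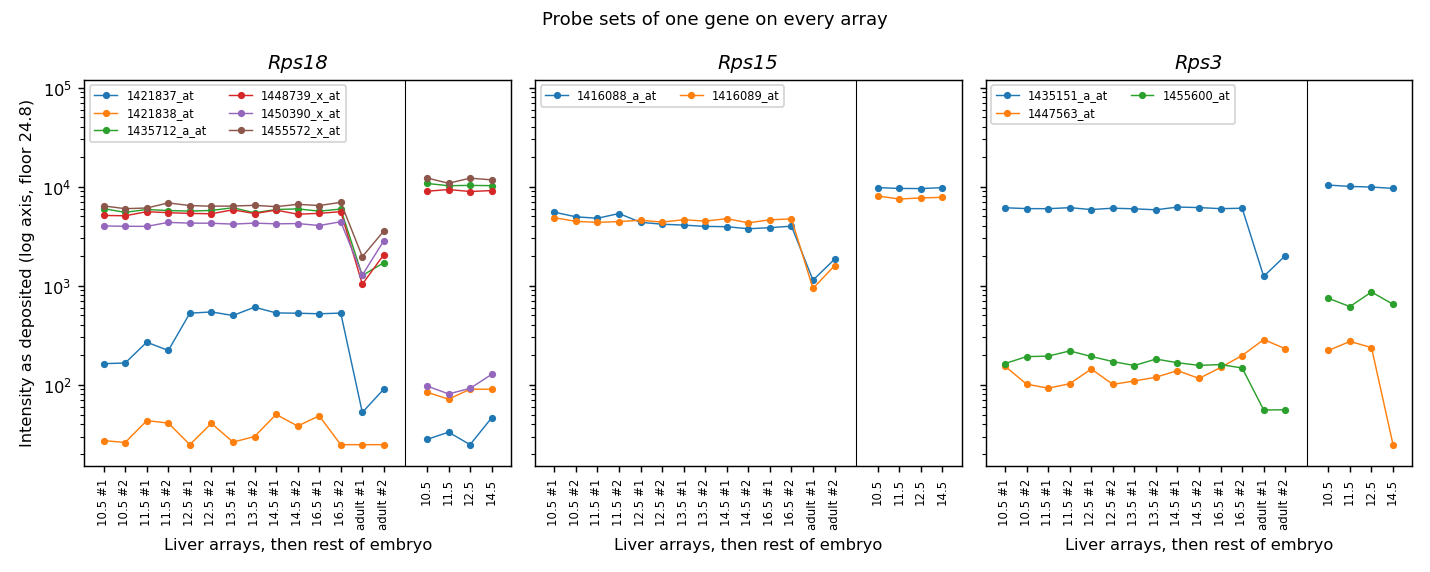
Deposited intensity (log axis, values under 24.8 drawn at 24.8) of every probe set of Rps18, Rps15 and Rps3 on the 14 liver arrays and, right of the line, the 4 rest-of-embryo arrays. Both probe sets of Rps15 drop on the adult arrays, whereas those of Rps18 and Rps3 take different courses.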

How the data were processed

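The authors deposited 1 table of probe set intensity values on a linear scale for 18 arrays. Total RNA was extracted with Trizol and labelled with biotin, per the labels' protocols. Probe summarisation and scaling are not given in the sources used here. Of 45101 probe sets, 64 controls were left out. The annotation names 1 gene symbol for 34945 of the rest, more than 1 for 932 and no symbol for 9160, and symbols of genes outside the group were updated where the RefSeq gene table held the identifier.

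Groups follow the source names, since the age entries of several liver samples repeat 10.5 dpc. Liver was fitted over 14 arrays in 7 groups with 7 residual degrees of freedom, and tissue over 12 arrays with stage as a factor. Tests used limma 3.58.1 in R 4.3.3 with an intensity trend, two-sided, with p-values adjusted by Benjamini-Hochberg within each comparison over every gene tested, and were tested on simulated data. Named members were the 6 farthest above and below the group's median in a comparison, those with negative correlation, paralogues, stalk proteins and listed genes. The members and lists were chosen with earlier results of these data known. Same-numbered replicates did not deviate together (21 pairs of groups, correlation of -0.320 to 0.221, 4 pairs above 0.1), so the number was not used as a block. Alternatives changed scaling, floor, filter, choice of probe set, variance prior and arrays. The number of arrays and signal over background limit the precision.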

Additional observations from a re-analysis of the deposited data

Results flagged for a closer look

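For Rps15 the difference between liver and the rest of the embryo changed with stage, by -0.12 log2 per day as deposited (limma interaction of tissue with days post conception, adjusted p = 0.0336, 12 arrays) and by -0.13 log2 per day after quantile normalization (adjusted p = 0.0136). The rest of the embryo has 1 array at each stage, and the call was lost without any one of these 4 arrays and without replicate 2 of 14.5 dpc liver. It was also lost after median centring, with no intensity trend, with the mean over probe sets, with all 18 arrays in one fit and without 10.5 and 12.5 dpc liver. The other probe set of the gene did not show the change (-0.00 log2 per day). The cause was not tested.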

How the results depend on the processing

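The count of members lower in adult liver was 40 to 42 under every alternative run, and the median difference, -1.66 log2 as reported, was -1.06 log2 after quantile normalization and -2.10 to -1.30 log2 with single arrays left out. Against 16.5 dpc the median was -0.98 log2 after quantile normalization and -2.11 to -1.31 log2 with single arrays left out. Between 16.5 and 10.5 dpc 1 member was called as reported, 3 after quantile normalization (Rps4l, Rpl14 and Rps15), 2 after median centring or with the higher floor, 4 without 10.5 and 12.5 dpc liver (where 11.5 dpc took the place of 10.5), 3 with the adult arrays left out, and 1 to 3 with single arrays left out, 3 without either adult array and 2 without either 11.5 dpc array. Among successive stages 2 were called with the higher floor (Rps4l and Rpl12, 12.5 against 11.5 dpc), 1 with the adult arrays left out (Rps4l), and 0 to 1 with single arrays left out. In liver against the rest of the embryo 14 members were lower after quantile normalization, and the median was -0.0061 log2, or -0.47 log2 after median centring. After quantile normalization 11 members were called higher in liver that were called lower as deposited, Rpl27, Rps3, Rps7, Rps9, Rps14 and Rps26 by 0.10 to 0.17 log2 and more strongly Rpl39 (0.49 log2), Rpl41 (0.39 log2), Rpl8 (0.29 log2), Rplp0 (0.24 log2) and Rps2 (0.32 log2). The change of that difference with stage was called for 0 members after median centring or with no intensity trend, 2 with the higher floor, with no filter or with all 18 arrays in one fit, and 0 to 3 with single arrays left out, 3 without 10.5 dpc replicate 1. With the replicate number as a block, the counts were 1 (16.5 against 10.5 dpc), 3 (any stage), 0 (steps), 42 (adult), 41 (adult against 16.5 dpc), 42 (tissue) and 1 (stage slope), so the block changed no count. The cause of these shifts was not tested, except that fits without the adult arrays use a smaller shared spread. For most of these alternatives the share of all genes called was not counted. The same holds for the share that changed direction, so these counts are not read as particular to the members.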

Other observations

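The genes outside the group whose log2 course over the 14 liver arrays was most like the members' median after quantile normalization were Pbk, Cdc7, Shcbp1, Bex1, Bub1, Ttk, Pdk3, Cenpa, Hbb-y and Ezh2, with correlations of 0.997 to 0.998. Bub1 and Ttk are kinases of the mitotic checkpoint, Cdc7 is a kinase of DNA replication, Pdk3 is a mitochondrial kinase and Hbb-y is an embryonic beta globin gene. All 10 were lower in adult liver, with normalized differences between -2.96 log2 for Ttk and -6.97 log2 for Hbb-y, larger than the median of -1.06 log2 of the members. With 2 adult arrays setting the course, a likeness of this kind rests on the adult drop.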
